A study of Rattus norvegicus with 44 samples.

Results

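Complement, coagulation and serpin genes were followed across livers of male Wistar rats given 1 of the compounds R1 and R2. The members were probe sets with 1 annotated gene symbol, chosen by a set list of symbols and opening letters. The list took symbols that open with Serpin (without the gene of corticosteroid-binding globulin), C1q, C4 or C8, the factors B, D, H and I of complement, and single named complement components, coagulation factors and fibrinogen chains, with plasminogen, protein C and protein S. It did not take every gene of these pathways: C1r, Masp1, Cfp, Klkb1, Plat and Plau, for example, were outside it. The rule found 54 of 8740 probe sets, for 42 of 4736 genes. Of these, 51 probe sets (39 genes) bear such a name, and the other 3 are open reading frames, C4h2orf68, C8h11orf54 and C8h15orf61, whose symbols match by their letters alone. A probe set was tested when at least 1 group mean reached a signal of 9.17, which left 47 members for 36 genes. Dim probe sets of Serpina5, Serpinb2, Serpinb3a, Serpinb5, Serpina1fl1 and Serpini2 and 1 of the Fgb probe sets, 7 in all, were not tested. Probe sets annotated to several genes (C4b with C4a, and Cfb with C2) were not members.

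All rats were 8 weeks old, were dosed by oral gavage once daily and were killed 24 h after the last dose. Vehicle rats received citric acid buffer. Study 1 (24 h) had 3 vehicle rats, 4 rats on R1 at 10 mg/kg/day, 3 at 30 and 3 at 100. Study 4 (24 h) had 5 rats on R2 at 300 mg/kg/day and 4 vehicle rats. Study 2 (336 h) had 4 vehicle rats, 5 rats on R1 at 20 mg/kg/day and 4 at 100. Study 3 (336 h) had 4 rats on R1 at 30 mg/kg/day and 5 vehicle rats. Each of the 44 arrays measured RNA from a slice of the left lateral lobe of 1 labelled sample. R1 and R2 are known here by code only, and they were given at different doses in different studies, so they were not compared with each other.

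Hepatocytes make most of the proteins of both plasma cascades. In coagulation, vitamin K dependent proteases (factors IX and X, prothrombin) end in thrombin, which turns fibrinogen into fibrin, and plasmin, made from plasminogen, dissolves the clot. In complement, C1q with C1r and C1s starts the classical pathway, C3 is the point where the pathways meet, and C8 and C9 form the end of the membrane attack complex. Serpins are suicide inhibitors of serine proteases: heparin cofactor II (Serpind1) inhibits thrombin, C1 inhibitor (Serping1) inhibits C1r, C1s and kallikrein, and alpha-1-antitrypsin (Serpina1) inhibits neutrophil elastase. Several of these genes belong to the acute phase response that interleukin 6 drives in the liver. C1q differs from the rest in that macrophages, which in liver are the Kupffer cells, are its main source.

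The members were bright genes. The median signal over the 16 vehicle arrays was 852.8 for the tested members, against 28.6 for all 6361 tested probe sets, and 29 of the 47 members lay in the brightest 10% of tested probe sets. In 42 of the 47, every group mean was above the filter. Hepatocyte markers were high on every array, with albumin between 8854 and 12598 and transthyretin between 5155 and 8854. Correlations of log2 signal between arrays of 1 group ran from 0.92 to 0.97. The arrays had been normalized to identical distributions, so a signal is a level relative to the rest of its array. Array number and brightness over background limit the precision.

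Against the vehicle of the same study, most members lay slightly below zero at every dose and time, and few passed the test. A call means an adjusted p under 0.05 in the limma fit, with log2 fold changes as compound over vehicle. In study 1, R1 at 10 mg/kg/day for 24 h gave 2 members lower and 1 higher, where 1.24% of all tested probe sets were called (0.204% lower and 1.04% higher). At 30 mg/kg/day no member was called by limma, where 1.73% of all probe sets were (0.252% lower and 1.48% higher), although 10 had an unadjusted p under 0.05. At 100 mg/kg/day 2 were lower and 0 higher, where 6.4% of all probe sets were called (2.44% lower and 3.96% higher). R2 at 300 mg/kg/day for 24 h gave 6 lower and 2 higher, 17.0% of the members, beside 15.3% of all probe sets (7.88% lower and 7.44% higher).

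For R1 the counts were larger at 336 h than at 24 h, with time tied to study. R1 at 20 mg/kg/day in study 2 gave 7 members lower and 1 higher, 17.0% of the members, beside 4.43% of all tested probe sets. R1 at 30 mg/kg/day in study 3 gave 12 lower and 2 higher, 29.8%, beside 11.3%. R1 at 100 mg/kg/day in study 2 gave 5 lower and 2 higher, 14.9%, beside 10.3%. The lower calls alone made up 14.9%, 25.5% and 10.6% of the members at 20, 30 and 100 mg/kg/day, where 1.89%, 6.01% and 5.2% of all probe sets were called lower and 2.55%, 5.27% and 5.11% higher. Without replicate 3 of the R1 30 mg/kg/day rats, the count in study 3 was 8 instead of 14. In all 7 comparisons together, 21 members (17 genes) were called at least once, 16 of them lower, 5 higher and 0 in both directions. The share of all tested probe sets called at least once was not counted, so these totals have no background beside them.

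**Figure D1:**
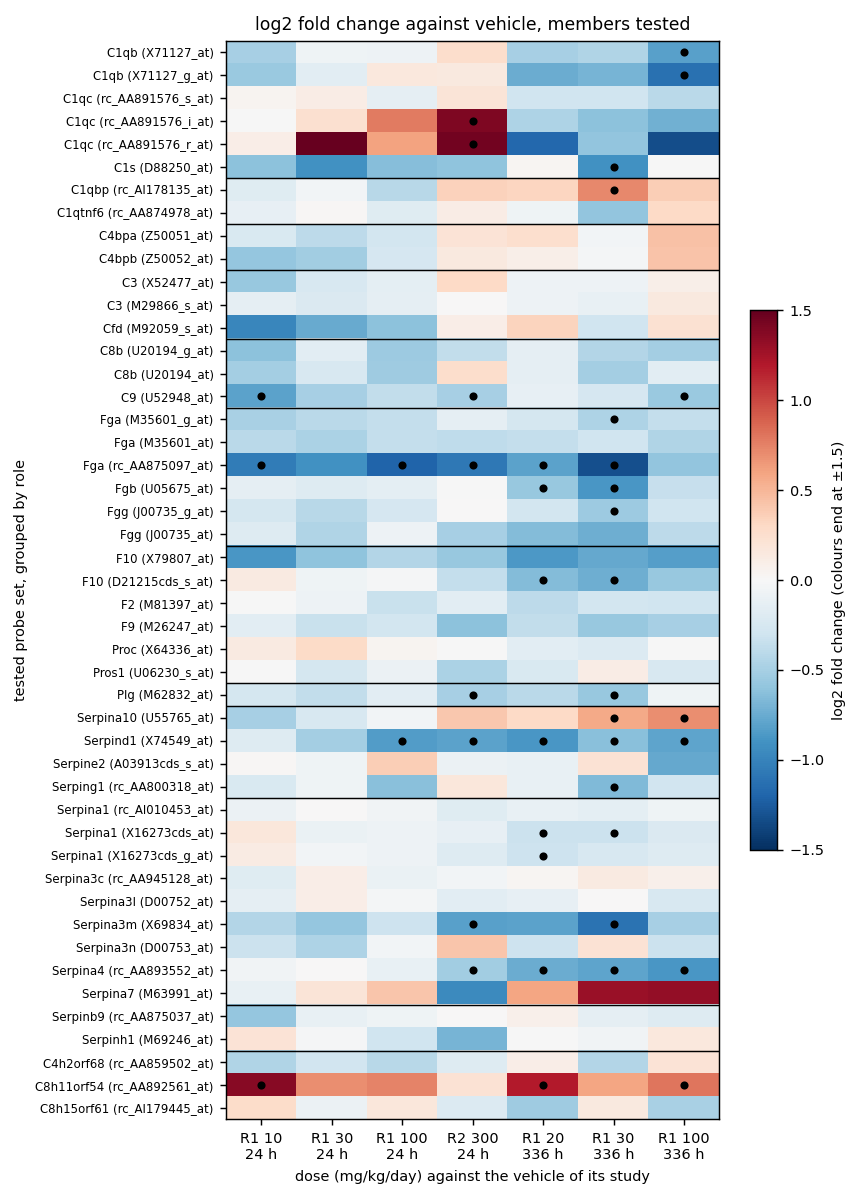
Log2 fold change of the 47 tested members (rows, grouped by role, with the probe set in brackets) in the 7 comparisons with vehicle (columns, dose in mg/kg/day). Blue is lower and red higher under the compound, and a black dot marks an adjusted p under 0.05. Serpind1 has 5 dots, Fga 5 in its dimmest probe set, and Serpina4 4, all in blue.

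The quartiles and the median of the members lay below those of all tested probe sets in each comparison with vehicle, while the ranges overlapped. Some gaps were small: at 100 mg/kg/day of R1 for 24 h the lower quartiles were -0.36 for members and -0.33 for all. At 336 h the median log2 fold change of the members was -0.23 at 20, -0.30 at 30 and -0.28 at 100 mg/kg/day of R1, where the medians over all tested probe sets were -0.01, -0.01 and -0.02. At 24 h R1 gave -0.19 at 10, -0.16 at 30 and -0.15 at 100 mg/kg/day, and R2 gave -0.12, where all probe sets had -0.02, -0.03, -0.04 and -0.05. Between 72.3% and 83.0% of the members were below zero in the 6 R1 comparisons, where 51.2% to 53.4% of all probe sets were. For R2 the share was 59.6%, against 54.1% of all probe sets. These are descriptions of a chosen list with no test, and members of 1 gene share its RNA. The members' median signal was far above that of all tested probe sets. Neither these medians nor the shares called were matched for brightness. The 3 comparisons of study 1 share 3 vehicle rats, and the 2 of study 2 share 4. In a liver slice, fewer hepatocytes and less of an RNA per hepatocyte cannot be told apart.

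**Figure D2:**
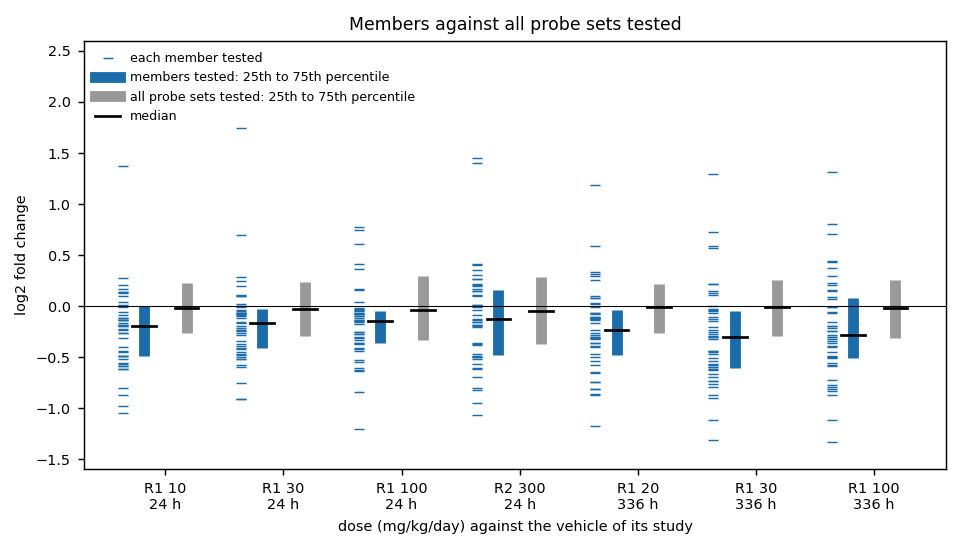
Log2 fold change against vehicle for each tested member (thin blue marks), their 25th to 75th percentile (blue bars) and the same for all tested probe sets (grey bars), with medians as black lines. The members' medians run from -0.30 to -0.12 and those of all probe sets from -0.05 to -0.01.

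The fibrinogen chains Fga, Fgb and Fgg, which join as the A-alpha, B-beta and gamma chains of fibrinogen, were each called lower under R1 at 30 mg/kg/day for 336 h, in 4 of 6 probe sets. At 20 mg/kg/day for 336 h Fga and Fgb were called, in 2 of 6 probe sets, and at 100 mg/kg/day for 336 h 0 of 6 were called by limma. Fga was also called at 24 h, under R1 at 10 and 100 mg/kg/day and under R2. The single call of Fgg was lost without 1 array (adjusted p = 0.141). Their genes lie next to each other on rat chromosome 2. The promoter windows below, 250 bases before to 50 after the annotated start, are from RefSeq on the GRCr8 build. They are shown because these 3 genes encode the chains of 1 protein and were all called lower in study 3, where Serpina4 and Plg, described further on, were called lower too. In all, 11 genes were called lower there. The windows of the others are not shown, and for Serpind1 none was available. The windows shown therefore do not stand for all genes called lower. Capitals mark the letters of 3 motifs: an arm of the palindromic site of hepatocyte nuclear factor 1 (GTTAAT, on either strand, so also ATTAAC), the interleukin 6 response motif of acute phase genes (CTGGGAA on either strand, so also TTCCCAG), and the TATA box (TATAAA, on the gene's own strand). Each sequence is given 5′ to 3′ on the gene's strand.
Fga, chr2:170671919-170672218, plus strand: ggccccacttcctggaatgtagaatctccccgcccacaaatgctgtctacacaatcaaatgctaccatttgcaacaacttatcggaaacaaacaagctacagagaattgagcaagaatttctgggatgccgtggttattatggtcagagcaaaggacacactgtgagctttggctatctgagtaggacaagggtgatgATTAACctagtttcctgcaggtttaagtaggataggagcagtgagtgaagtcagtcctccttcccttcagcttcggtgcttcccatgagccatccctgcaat
Fgb, chr2:170700826-170701125, minus strand: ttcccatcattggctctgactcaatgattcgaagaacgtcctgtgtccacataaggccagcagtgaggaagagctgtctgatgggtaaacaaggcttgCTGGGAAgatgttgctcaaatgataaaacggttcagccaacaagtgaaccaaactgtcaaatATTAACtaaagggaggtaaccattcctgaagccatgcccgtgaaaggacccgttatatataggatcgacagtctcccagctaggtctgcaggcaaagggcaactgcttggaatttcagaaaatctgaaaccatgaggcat
Fgg, chr2:170652833-170653132, plus strand: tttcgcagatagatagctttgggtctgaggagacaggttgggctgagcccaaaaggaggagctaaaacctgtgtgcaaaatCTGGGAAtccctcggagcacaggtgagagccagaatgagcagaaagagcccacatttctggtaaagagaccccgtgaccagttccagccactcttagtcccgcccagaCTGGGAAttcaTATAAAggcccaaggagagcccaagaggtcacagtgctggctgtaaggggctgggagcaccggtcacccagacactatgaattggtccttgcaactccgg
Serpina4, chr6:128764532-128764831, plus strand: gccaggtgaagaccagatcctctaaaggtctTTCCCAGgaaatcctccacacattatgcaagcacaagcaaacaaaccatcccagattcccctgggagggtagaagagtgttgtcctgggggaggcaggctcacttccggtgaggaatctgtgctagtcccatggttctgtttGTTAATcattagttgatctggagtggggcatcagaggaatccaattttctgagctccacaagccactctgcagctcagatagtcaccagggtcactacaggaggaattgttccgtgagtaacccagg
Plg, chr1:50915357-50915656, minus strand: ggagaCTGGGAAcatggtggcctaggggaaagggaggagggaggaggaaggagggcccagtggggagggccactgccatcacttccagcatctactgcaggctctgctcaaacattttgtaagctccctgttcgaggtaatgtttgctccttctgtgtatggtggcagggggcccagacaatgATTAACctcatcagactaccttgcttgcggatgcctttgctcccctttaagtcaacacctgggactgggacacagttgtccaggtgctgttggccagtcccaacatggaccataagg

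The hepatocyte nuclear factor 1 motif began 52 bases before the start in Fga, 90 in Fgb, 77 in Serpina4 and 67 in Plg. The interleukin 6 motif began 152 bases before the start in Fgb, 169 and 61 in Fgg, 219 in Serpina4 and 245 in Plg. Only Fgg among these 5 windows held TATAAA, 50 bases before the start, and no motif overlapped another. Of the 39 genes with complement, coagulation or serpin names, 32 had a window of this length. The hepatocyte nuclear factor 1 motif was in 9 of those 32 (28.1%), beside 7.45% of all 33469 promoters and 5.04% of the 3033 promoters of tested genes. The interleukin 6 motif was in 10 of 32 (31.2%), beside 11.3% of all and 10.7% of tested genes, and TATAAA in 2 of 32 (6.25%), beside 8.8% of all and 7.65% of tested genes. These matches describe letters only, and binding of a factor was not measured.

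Fga had the most calls of the 3, in its dimmest probe set, rc_AA875097_at. In study 1 its signal was 820, 881 and 1045 in vehicle rats, 475, 435, 334 and 544 at R1 10 mg/kg/day, 345, 576 and 567 at 30, and 238, 408 and 631 at 100. Every treated rat was below every vehicle rat. The log2 fold change was -1.04 ± 0.24 (SE, adjusted p = 0.0134) at 10, -0.91 ± 0.26 (adjusted p = 0.0621, not called) at 30 and -1.20 ± 0.26 (adjusted p = 0.00171) at 100 mg/kg/day. The call at 10 was lost without replicate 2 or 3 of vehicle or replicate 3 of the treated rats (adjusted p up to 0.106), and the call at 100 without replicate 1 of the treated rats (adjusted p = 0.0623).

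R2 gave 324, 336, 386, 411 and 299, against 753, 722, 828 and 646 in its vehicle rats. The difference was -1.07 ± 0.21 (SE, adjusted p = 0.000284), with no overlap. In study 3, R1 at 30 mg/kg/day for 336 h gave 229, 301, 150 and 340, against 614, 550, 658, 532 and 720 in vehicle rats. This was the largest fall of any member in any comparison with vehicle that passed the test, -1.32 ± 0.21 (adjusted p = 1.49e-05), and the R1 rats lay well below all vehicle rats. In study 2 the signal was 423, 474, 435 and 416 in vehicle rats, 171, 308, 300, 196 and 304 at 20 mg/kg/day and 274, 359, 270 and 266 at 100. Both dosed groups lay below vehicle, with -0.81 ± 0.21 (adjusted p = 0.0174) at 20 and -0.59 ± 0.23 (adjusted p = 0.0975, not called) at 100. The call at 20 was lost without replicate 2 of vehicle or replicate 1 or 4 of the R1 rats (adjusted p up to 0.0744).

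The other Fga probe sets are brighter and moved less. M35601_g_at averaged 3445 ± 585 under R1 at 30 mg/kg/day for 336 h and 4718 ± 490 in vehicle rats (SD, n = 4 and 5), a fall by 0.46 on the log2 scale (SE 0.14, adjusted p = 0.0253). That call was lost without replicate 3 of the R1 rats or replicate 4 or 5 of vehicle (adjusted p up to 0.203). M35601_at was not called in any comparison with vehicle. Which Fga transcripts each of the 3 probe sets detects was not tested.

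Fgb was called lower at 20 and 30 mg/kg/day of R1 for 336 h and in no comparison at 24 h. R1 at 30 mg/kg/day gave 2552, 2569, 1457 and 2715, against 4114, 3412, 4304, 4506 and 4409 in vehicle rats of study 3. The difference was -0.87 ± 0.16 (SE, adjusted p = 8.03e-05), and the groups did not overlap. In study 2 the signal was 3862, 4222, 4005 and 3628 in vehicle rats, 2164, 2884, 3160, 2343 and 2766 at 20 mg/kg/day and 3008, 3160, 2411 and 4005 at 100. The 20 mg/kg/day rats were all below vehicle, with -0.57 ± 0.16 (adjusted p = 0.0224), a call lost without any 1 of 5 arrays (replicates 1, 2 and 3 of vehicle, 1 and 4 of R1, adjusted p up to 0.0805). The 100 mg/kg/day rats overlapped vehicle at -0.34 ± 0.17 (adjusted p = 0.225). Under R2 the log2 fold change was -0.00 ± 0.16.

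Fgg had 1 call, in study 3. J00735_g_at read 2845, 2442, 1786 and 2902 under R1 at 30 mg/kg/day, against 3383, 3435, 3501, 3862 and 3661 in vehicle rats. The groups did not overlap, and the log2 fold change was -0.54 ± 0.15 (SE, adjusted p = 0.0133). Without replicate 3 of the R1 rats the adjusted p was 0.141. All 6 tested fibrinogen probe sets were below zero in each of the 6 R1 comparisons, called or not, and 5 of 6 under R2.

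**Figure D3:**
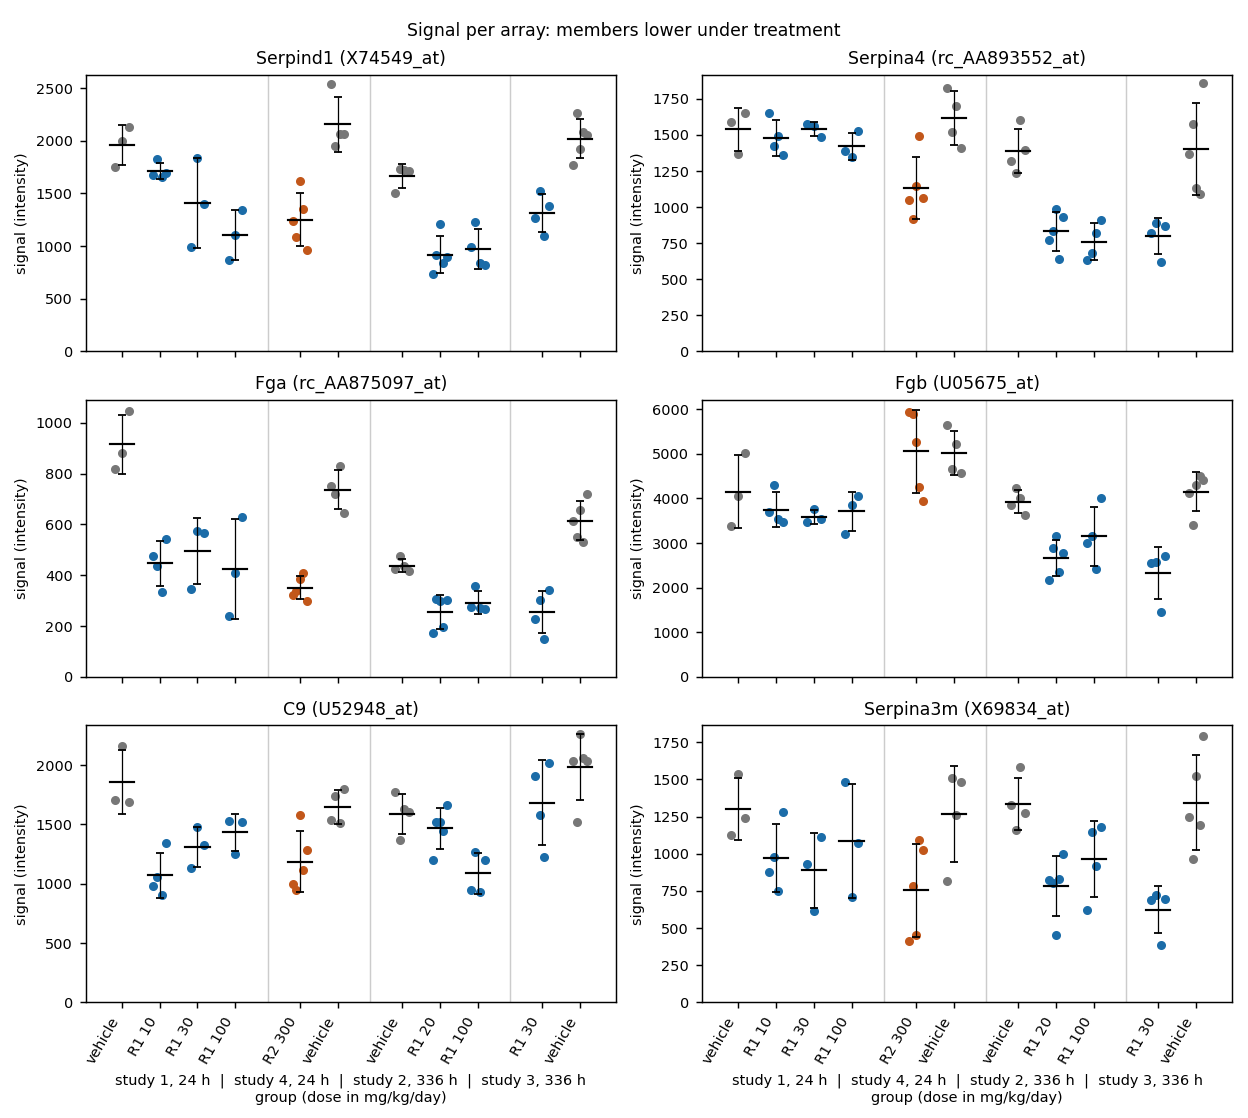
Signal (intensity, linear scale from 0) on each array for Serpind1, Serpina4, Fga, Fgb, C9 and Serpina3m, by study and dose (mg/kg/day). Points are arrays (grey vehicle, blue R1, orange R2), long black lines are means and bars are ± 1 SD. Under R1 at 336 h, Serpind1 and Serpina4 lie below every vehicle array of the same study.

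Of the vitamin K dependent factors, F10, the protease that makes thrombin from prothrombin, was the only gene called against vehicle. D21215cds_s_at read 498, 544, 382, 637 and 614 under R1 at 20 mg/kg/day for 336 h, against 763, 832, 830 and 886 in vehicle rats. No array overlapped, and the difference was -0.65 ± 0.19 (SE, adjusted p = 0.0417). The call was lost without any 1 of 7 of the 9 arrays (adjusted p up to 0.162). Under R1 at 30 mg/kg/day it read 468, 450, 280 and 370, against 876, 564, 683, 652 and 485 in vehicle rats, also with no overlap (-0.73 ± 0.19, adjusted p = 0.00812), and without replicate 3 of the R1 rats the adjusted p was 0.0819. At 100 mg/kg/day for 336 h its 4 values spread from 351 to 799 and it was not called. The second F10 probe set, X79807_at, was at -0.86, -0.76 and -0.83 on the log2 scale at 20, 30 and 100 mg/kg/day, with adjusted p of 0.0845, 0.0870 and 0.0794.

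F9 (factor IX), F2 (prothrombin), Proc (protein C, an anticoagulant protease) and Pros1 (its cofactor protein S) were not called against vehicle. F9 came nearest under R2, with 403, 306, 622, 555 and 426, against 861, 563, 648 and 710 in vehicle rats (-0.61 ± 0.23, SE, adjusted p = 0.0644). F2 was between -0.39 and -0.00 in the 7 comparisons. Proc ranged from -0.21 to 0.28. Among the genes that act on this group, Ggcx, the carboxylase that vitamin K dependent factors need, was lower under R2 by 1.19 on the log2 scale (a log2 fold change of -1.19 ± 0.20, adjusted p = 2.73e-05).

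Plasminogen (Plg) was lower under R2 and under R1 at 30 mg/kg/day for 336 h. R2 gave 1169, 1279, 897, 1195 and 1028, against 2018, 1380, 1296 and 1666 in vehicle rats. The groups were just apart, and the difference was -0.50 ± 0.18 (SE, adjusted p = 0.0473). R1 at 30 mg/kg/day gave 1753, 1166, 1151 and 1898, against 1940, 2277, 2009, 2221 and 2385 in vehicle rats, which did not overlap either (-0.57 ± 0.18, adjusted p = 0.0277). Each of these calls was lost without any 1 of 5 of the 9 arrays (adjusted p up to 0.199 for R2 and 0.159 for R1).

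Serpind1, heparin cofactor II, was the member called most evenly, lower in 5 of 7 comparisons with no overlap in any of the 5. In study 1 its signal was 1753, 1994 and 2134 in vehicle rats, 1671, 1826, 1659 and 1690 at R1 10 mg/kg/day, 992, 1841 and 1397 at 30, and 870, 1110 and 1344 at 100. The 10 and 30 mg/kg/day rats overlapped vehicle and the 100 mg/kg/day rats did not. The difference at 100 mg/kg/day was -0.84 ± 0.19 (SE, adjusted p = 0.00346). Set against 10 mg/kg/day, 100 mg/kg/day was lower by 0.65 on the log2 scale (a log2 fold change of -0.65 ± 0.18, adjusted p = 0.0299), the only member called between doses, where 3.98% of all probe sets were called (1.67% lower and 2.31% higher). The call against vehicle was lost without replicate 1 of the 100 mg/kg/day rats (adjusted p = 0.0576), and the call between doses without any 1 of 5 of the 7 arrays (adjusted p up to 0.285).

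Under R2, Serpind1 read 1237, 1088, 1617, 1356 and 962, against 2539, 1949, 2067 and 2067 in vehicle rats, a log2 fold change of -0.80 ± 0.16 (SE, adjusted p = 0.000264). In study 2 it read 1501, 1730, 1723 and 1710 in vehicle rats, 740, 912, 1210, 844 and 894 at R1 20 mg/kg/day, and 995, 1233, 844 and 820 at 100. Both doses were below all vehicle rats, with -0.87 ± 0.16 (adjusted p = 0.000212) at 20 and -0.79 ± 0.17 (adjusted p = 0.000663) at 100. The difference between these doses was 0.08 ± 0.16 (adjusted p = 0.928). In study 3, R1 at 30 mg/kg/day gave 1268, 1522, 1092 and 1380, against 1770, 2264, 1923, 2087 and 2059 in vehicle rats (-0.62 ± 0.16, adjusted p = 0.00563). These 4 calls were kept with each array left out.

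Serpina10, the protein Z-dependent inhibitor of factor X, was the only inhibitor of coagulation called higher. R1 at 30 mg/kg/day for 336 h gave 788, 937, 836 and 797, against 544, 538, 523, 628 and 582 in vehicle rats, with no overlap (0.57 ± 0.17, SE, adjusted p = 0.0212). In study 2 the signal was 522, 414, 410 and 591 in vehicle rats, 507, 525, 542, 658 and 749 at 20 mg/kg/day and 746, 581, 759 and 1123 at 100. Only the lowest 100 mg/kg/day rat was within the vehicle range, and the difference was 0.70 ± 0.18 (adjusted p = 0.00587), with 0.30 ± 0.17 (not called) at 20. The study 3 call was lost without replicate 2 or 3 of the R1 rats (adjusted p up to 0.0715), and the study 2 call without replicate 4 of the 100 mg/kg/day rats (adjusted p = 0.0631).

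Serping1, C1 inhibitor, was lower under R1 at 30 mg/kg/day for 336 h, at 1038, 1116, 979 and 1300, against 1210, 1866, 2077, 1799 and 1949 in vehicle rats. Vehicle replicate 1 lay inside the range of the R1 rats and the other 4 above it. The log2 fold change was -0.67 ± 0.17 (SE, adjusted p = 0.00552). Serpine2 (protease nexin 1) was not called.

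Serpina4 carries the name of human kallistatin, an inhibitor of tissue kallikrein. It was lower in all 3 comparisons at 336 h and, at 24 h, under R2. In study 2 its signal was 1320, 1237, 1601 and 1397 in vehicle rats, 772, 832, 985, 643 and 932 at R1 20 mg/kg/day, and 636, 680, 822 and 909 at 100. In study 3 it was 824, 892, 620 and 868 under R1 at 30 mg/kg/day, against 1365, 1576, 1135, 1092 and 1857 in vehicle rats. No dosed rat reached its vehicle group, and the differences were -0.74 ± 0.15 (SE, adjusted p = 0.000928) at 20, -0.79 ± 0.15 (adjusted p = 0.000172) at 30 and -0.87 ± 0.16 (adjusted p = 7.85e-05) at 100 mg/kg/day. These 3 calls were kept with each array left out.

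After 24 h of R1, Serpina4 was not called. In study 1 it read 1592, 1370 and 1655 in vehicle rats, 1650, 1422, 1490 and 1361 at 10 mg/kg/day, 1576, 1564 and 1484 at 30, and 1391, 1344 and 1527 at 100, so every dose overlapped vehicle. The effect of 100 mg/kg/day at 336 h minus that at 24 h was -0.76 ± 0.24 (SE, adjusted p = 0.0581), and that of 30 mg/kg/day -0.80 ± 0.24 (adjusted p = 0.109), so neither difference between times passed the test. No member did: 10 and 9 members had an unadjusted p under 0.05 in these limma comparisons, where 5.3% (3.13% lower and 2.17% higher) and 0.959% (0.456% lower and 0.503% higher) of all probe sets were called. Time is tied to study in both. Under R2 the values were 1051, 917, 1147, 1490 and 1060, against 1826, 1522, 1704 and 1406 in vehicle rats. The highest R2 rat overlapped vehicle, and the call (-0.52 ± 0.15, adjusted p = 0.0127) was lost without replicate 1 of vehicle (adjusted p = 0.0562).

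Serpina3m belongs to the family of alpha-1-antichymotrypsin, which is expanded in rodents, so its probe set may also read close copies. R1 at 30 mg/kg/day for 336 h gave 687, 726, 386 and 699, against 1244, 962, 1522, 1195 and 1793 in vehicle rats, with no overlap (-1.11 ± 0.27, SE, adjusted p = 0.00301). R2 gave 412, 780, 456, 1095 and 1025, against 816, 1512, 1263 and 1484 in vehicle rats, which overlapped (-0.82 ± 0.27, adjusted p = 0.0288). The R2 call was lost without any 1 of 5 of the 9 arrays (adjusted p up to 0.123). Serpina3c, Serpina3l and Serpina3n, other members of the family, were not called. Serpina3n was at 0.41 ± 0.20 under R2 (adjusted p = 0.157), opposite in sign to Serpina3m.

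Serpina1, alpha-1-antitrypsin, is among the brightest genes on these arrays. Its brightest probe set, rc_AI010453_at, lay between 10258 and 13236, the highest value on any array, and was not called. With identical distributions on all arrays no signal can pass 13236, which limits any rise that this probe set could show. X16273cds_at was lower by 0.32 on the log2 scale under R1 at 20 and at 30 mg/kg/day for 336 h (both log2 fold changes -0.32 ± 0.09, SE, adjusted p = 0.0246 and 0.0104). At 20 it read 8047, 7926, 8621, 8047 and 8047, against 9711, 10258, 9711 and 10952 in vehicle rats, which did not overlap. X16273cds_g_at was called at 20 mg/kg/day too (-0.30 ± 0.08, adjusted p = 0.0243). Both calls at 20 were lost without single arrays (adjusted p up to 0.113 and 0.0753).

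Serpina7, thyroxine-binding globulin, had the largest rises on the log2 scale at 336 h among these serpins but no call. In study 2 it read 31.7, 13.5, 26.5 and 29.1 in vehicle rats, 89.1, 50.1, 15.2, 17.98 and 57.7 at R1 20 mg/kg/day, and 58.8, 130, 23.7 and 90.3 at 100. In study 3 it read 53.2, 9.86, 24.9 and 39.9 at 30 mg/kg/day, against 25.9, 13.8, 2.59, 4.69 and 11.6 in vehicle rats. All groups overlapped, and the log2 fold changes were 0.59 ± 0.50, 1.29 ± 0.50 and 1.31 ± 0.53 (SE, adjusted p = 0.655, 0.0907 and 0.114) at 20, 30 and 100 mg/kg/day. The intracellular serpins tested, Serpinb9, an inhibitor of granzyme B, and Serpinh1, a chaperone of collagen, were not called.

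In the C1 complex, C1qb was lower under R1 at 100 mg/kg/day for 336 h and C1s under 30 mg/kg/day for 336 h. C1qb (X71127_at) read 584, 445, 397 and 336 in vehicle rats of study 2, 308, 314, 441, 268 and 230 at 20 mg/kg/day and 276, 181, 252 and 286 at 100. The 100 mg/kg/day rats were all below vehicle, with -0.81 ± 0.20 (SE, adjusted p = 0.00431), and the second probe set gave -1.12 ± 0.28 (adjusted p = 0.00431). At 20 mg/kg/day the groups overlapped and C1qb was not called (-0.50 ± 0.19, adjusted p = 0.157). At 30 mg/kg/day in study 3 it read 187, 196, 176 and 191, against 278, 218, 251, 325 and 231 in vehicle rats, apart but not called (-0.45 ± 0.19, adjusted p = 0.138).

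Kupffer cell markers were measured beside C1q. Of 6 tested markers, 1 was lower (Clec4f, a lectin of Kupffer cells, -1.31 ± 0.23, SE, adjusted p = 3.57e-05) and 1 higher (Cd14, 0.80 ± 0.24, adjusted p = 0.0207) under R1 at 100 mg/kg/day for 336 h. Clec4f was lower at 20 and at 30 mg/kg/day too (-0.88 ± 0.22 and -0.82 ± 0.22, adjusted p = 0.00819 and 0.00729). The summed signal of the 6 ran from 729 to 1131 at 100 mg/kg/day and from 869 to 1451 in vehicle rats. Their median log2 fold change was -0.60 at 100 mg/kg/day. The part of Kupffer cells in the C1qb values was not tested.

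The brighter C1qc probe set was at -0.40 ± 0.20 (SE, adjusted p = 0.233) under R1 at 100 mg/kg/day for 336 h and at 0.20 ± 0.19 (adjusted p = 0.540) under R2, neither called. The dim C1qc probe sets were called higher under R2, though. rc_AA891576_i_at read 47.7, 42.6, 18.2, 18.4 and 19.3, against 12.3, 18.9, 1.99 and 6.98 in vehicle rats, which overlapped (1.40 ± 0.38, adjusted p = 0.00735). rc_AA891576_r_at read 75.3, 109, 27.5, 12.7 and 12.7, against 19.9, 7.70, 13.5 and 5.18 (1.45 ± 0.49, adjusted p = 0.0370). So 2 R2 rats carried most of the rise. The first call was lost without replicate 3 of vehicle (adjusted p = 0.0833) and the second without any 1 of 5 arrays (adjusted p up to 0.172).

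C1s, the protease that cleaves C4 and C2, read 334, 448, 244 and 456 under R1 at 30 mg/kg/day for 336 h, against 516, 658, 807, 680 and 751 in vehicle rats. The groups did not overlap, and the log2 fold change was -0.90 ± 0.22 (SE, adjusted p = 0.00283). In study 2 C1s was not called, at 303 ± 36.8 in vehicle rats, 313 ± 67.8 at 20 and 318 ± 127 at 100 mg/kg/day (SD, n = 4, 5 and 4). C1qbp, a mitochondrial protein named for its binding to C1q, was higher in study 3, at 141, 161, 174 and 143 under R1, against 95.7, 87.0, 101, 102 and 77.6 in vehicle rats (0.72 ± 0.20, adjusted p = 0.0131). The groups did not overlap, and without replicate 3 of the R1 rats the adjusted p was 0.0601.

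C3 was not called against vehicle under any dose. X52477_at, its brighter probe set, read 6461, 6277 and 5821 in vehicle rats of study 1, 4114, 4222, 3357 and 5212 at R1 10 mg/kg/day, 6004, 3934 and 6057 at 30, and 5756, 5466 and 5520 at 100. It was lowest at 10 mg/kg/day, at -0.57 ± 0.16 (SE, adjusted p = 0.0637), and in study 2 and study 3 lay between -0.07 and 0.09. The alpha and beta chains of C4-binding protein (C4bpa, C4bpb), which helps to degrade C4b, and Cfd, the protease factor D, were not called either. C8b was below zero in all 6 R1 comparisons in both probe sets without a call.

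C9, which forms the pore of the membrane attack complex, was lower under R1 at 10 mg/kg/day for 24 h, under R2 and under R1 at 100 mg/kg/day for 336 h. In study 1 it read 1710, 2164 and 1690 in vehicle rats, 983, 1057, 904 and 1340 at 10 mg/kg/day, 1132, 1474 and 1324 at 30, and 1527, 1254 and 1522 at 100. All dosed rats were below vehicle. The differences were -0.80 ± 0.18 (SE, adjusted p = 0.00788) at 10, -0.50 ± 0.19 (adjusted p = 0.245) at 30 and -0.37 ± 0.19 (adjusted p = 0.319) at 100. The test of 100 against 10 mg/kg/day gave 0.43 ± 0.18 (adjusted p = 0.195), so these doses were not shown to differ. The call at 10 was lost without replicate 2 of vehicle (adjusted p = 0.115).

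In study 2, C9 read 1770, 1365, 1628 and 1601 in vehicle rats, 1199, 1517, 1517, 1442 and 1666 at 20 mg/kg/day and 946, 1271, 932 and 1203 at 100. The 100 mg/kg/day rats were below vehicle (-0.55 ± 0.16, SE, adjusted p = 0.0191), and the 20 mg/kg/day rats overlapped vehicle (-0.12 ± 0.15, not called). The difference of 100 from 20 mg/kg/day was -0.44 ± 0.15 (adjusted p = 0.126), the smallest adjusted p of any member there, where 4.07% of all probe sets (1.98% lower and 2.09% higher) and 0 members were called by limma, with 4 members at an unadjusted p under 0.05. R2 gave 1001, 944, 1580, 1119 and 1284, against 1533, 1738, 1512 and 1799, with 1 R2 rat inside the vehicle range (-0.49 ± 0.15, adjusted p = 0.0232). The study 2 call was lost without any 1 of 3 arrays (adjusted p up to 0.0785) and the R2 call without any 1 of 4 (adjusted p up to 0.0842).

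Of the 3 open reading frames matched by letters, C8h11orf54 was called higher 3 times. It read 96.5, 158 and 82.5 in vehicle rats of study 1, 240, 319, 331 and 256 at R1 10 mg/kg/day, 140, 258 and 152 at 30, and 194, 202 and 157 at 100. In study 2 it read 35.9, 39.0, 37.9 and 44.6 in vehicle rats, 96.5, 79.1, 131, 105 and 65.9 at 20 mg/kg/day and 101, 59.3, 60.9 and 68.3 at 100. The called groups lay above their vehicle rats, with 1.37 ± 0.23 (SE, adjusted p = 0.000166) at 10 mg/kg/day for 24 h, 1.19 ± 0.20 (adjusted p = 7.4e-05) at 20 and 0.81 ± 0.21 (adjusted p = 0.00786) at 100 mg/kg/day for 336 h. The last was lost without replicate 1 of the treated rats (adjusted p = 0.0684). Leaving the 3 open reading frames out changed the members' median log2 fold change by at most 0.02 in each comparison with vehicle.

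Several members differed between vehicle groups of different studies. Vehicle rats of study 3 had 8 members higher and 2 lower than vehicle rats of study 2, both at 336 h, where 17.8% of all probe sets were called (9.29% lower and 8.55% higher). Plg read 1940, 2277, 2009, 2221 and 2385 in study 3 and 591, 620, 538 and 695 in study 2 (1.82 ± 0.18, SE, adjusted p = 1.36e-10). F9 read 755, 920, 873, 917 and 907 in study 3 and 257, 306, 235 and 329 in study 2 (1.63 ± 0.23, adjusted p = 9.26e-07). These groups were far apart. C1s (1.16 ± 0.22, adjusted p = 0.000101), Serping1 (0.74 ± 0.17, adjusted p = 0.00144), C4bpa (0.66 ± 0.20, adjusted p = 0.0146) and the less bright C3 probe set (0.32 ± 0.10, adjusted p = 0.0162) were higher too.

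C1qb (X71127_at) was lower in study 3 vehicle rats (-0.74 ± 0.19, SE, adjusted p = 0.00492), as was C1qbp (-0.68 ± 0.20, adjusted p = 0.0136). The second C1qb probe set was not called. C1qtnf6 (0.58 ± 0.21, adjusted p = 0.0449) and C8h11orf54 (1.58 ± 0.20, adjusted p = 1.43e-07) completed the calls. The call of C4bpa was lost without replicate 3 of the study 2 vehicle (adjusted p = 0.0666), and that of C1qtnf6 without any 1 of 7 arrays (adjusted p up to 0.134). Vehicle rats of study 4 differed from those of study 1 in 4 members, where 5.64% of all probe sets were called (3.02% lower and 2.63% higher). F9 (0.93 ± 0.26, adjusted p = 0.0262), Proc (0.55 ± 0.16, adjusted p = 0.0348) and Serpina1 X16273cds_at (0.33 ± 0.10, adjusted p = 0.0430) were higher and C3 X52477_at lower (-0.55 ± 0.16, adjusted p = 0.0298). Each of these 4 was lost without 1 of several arrays (adjusted p up to 0.177). Levels set across studies therefore hold a difference between studies.

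**Figure D4:**
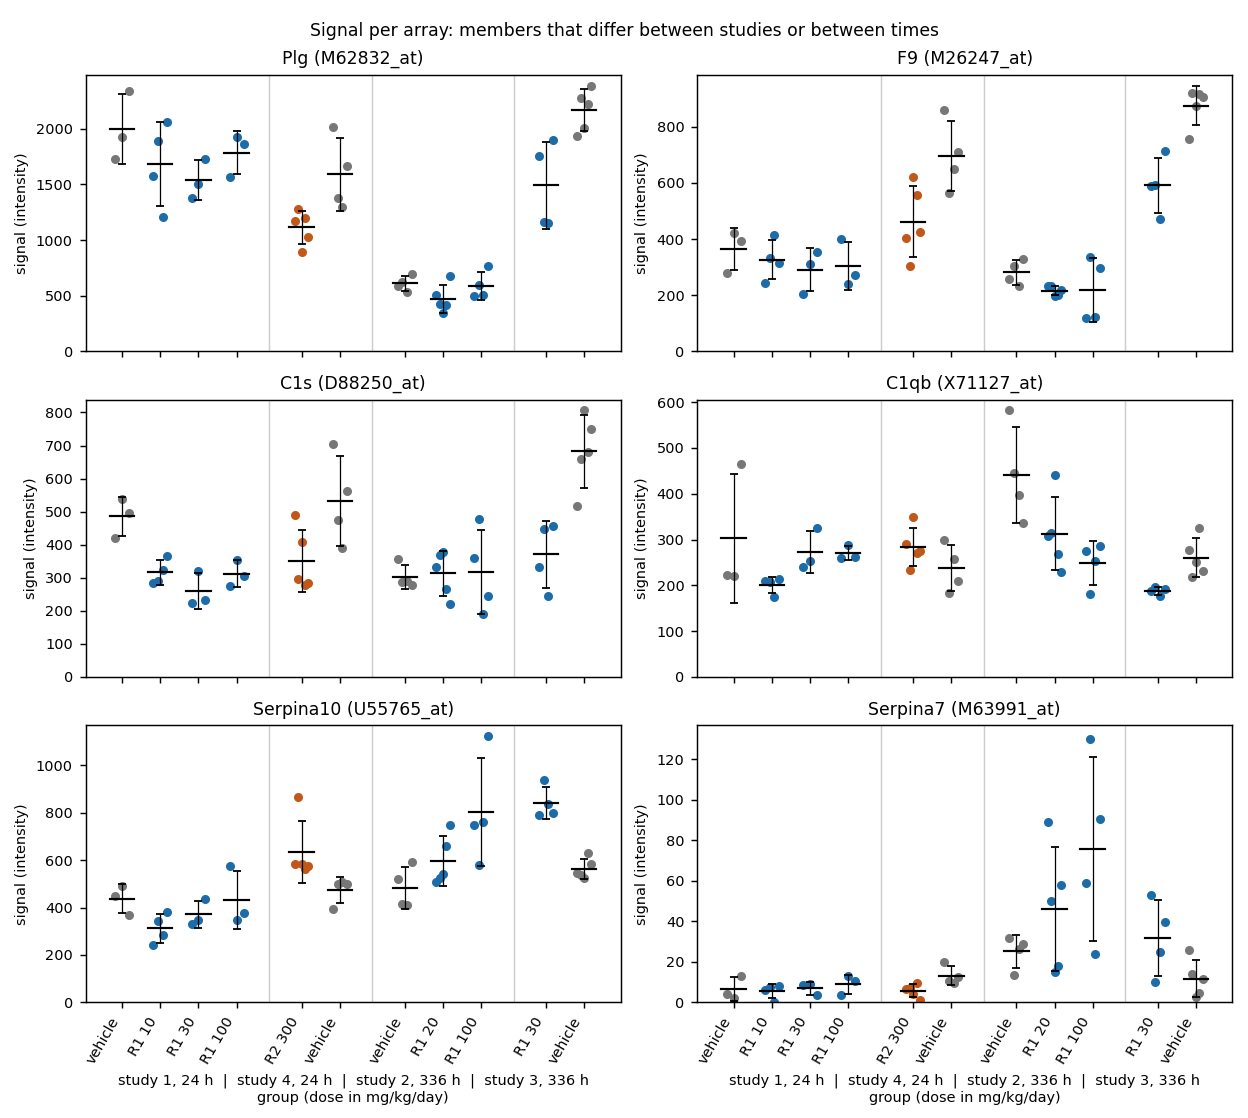
Signal (intensity, linear scale from 0) on each array for Plg, F9, C1s, C1qb, Serpina10 and Serpina7, by study and dose (mg/kg/day). Points are arrays (grey vehicle, blue R1, orange R2), long black lines are means and bars are ± 1 SD. Plg reads 342 to 768 on the arrays of study 2 and 1151 to 2385 on those of study 3.

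Other genes of these pathways came from lists of complement, coagulation and inhibitor genes that the members' rule did not take. Of 11 other complement genes tested, 3 were lower under R2: the lectin pathway's mannose-binding lectins Mbl1 (-0.82 ± 0.19, SE, adjusted p = 0.00177) and Mbl2 (-0.89 ± 0.23, adjusted p = 0.00597), and the C5a receptor C5ar1 (-0.72 ± 0.24, adjusted p = 0.0311). Under R1 at 30 mg/kg/day for 336 h, Mbl1 (-0.70 ± 0.19, adjusted p = 0.00998) and vitronectin Vtn (-0.53 ± 0.15, adjusted p = 0.0163) were lower and the membrane inhibitor Cd59b higher (0.98 ± 0.24, adjusted p = 0.00333). Cd59b was also higher at 20 mg/kg/day (0.82 ± 0.24, adjusted p = 0.0317), and properdin Cfp lower at 100 for 336 h (-0.64 ± 0.19, adjusted p = 0.0239). In the 3 comparisons of study 1 with vehicle none of the 11 was called by limma. Between doses in study 1, Mbl2 was lower at 100 than at 10 mg/kg/day (-0.93 ± 0.27, adjusted p = 0.0353).

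Of 14 other coagulation and fibrinolysis genes tested, 1 was called lower and 0 higher under R2, 1 lower and 1 higher under R1 at 30 mg/kg/day for 336 h, and 1 higher at 100 for 336 h. They were Ggcx, given above, Apoh (-0.45 ± 0.13, SE, adjusted p = 0.0174), the phospholipid-binding Anxa5 (0.63 ± 0.21, adjusted p = 0.0387) and tissue plasminogen activator Plat (1.14 ± 0.35, adjusted p = 0.0245). Of 9 other plasma inhibitors, Itih3, a heavy chain of inter-alpha-inhibitor, was lower in all 3 comparisons at 336 h (-0.95 ± 0.15 at 20, -0.94 ± 0.15 at 30 and -1.13 ± 0.16 at 100 mg/kg/day). Its adjusted p were 3.09e-05, 1.66e-05 and 8.95e-07. The broad protease inhibitors A2m (-1.58 ± 0.49, adjusted p = 0.0271) and Pzp (-0.70 ± 0.16, adjusted p = 0.00131) were lower at 30 mg/kg/day for 336 h, and Mug1 (-1.17 ± 0.24, adjusted p = 0.000415) and Pzp (-0.61 ± 0.16, adjusted p = 0.00496) under R2. In study 2 A2m was not called against vehicle. There it was higher at 100 than at 20 mg/kg/day for 336 h (2.23 ± 0.49, adjusted p = 0.00236).

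A separate list of acute phase genes and interleukin 6 signalling genes held neither the fibrinogen chains nor A2m, acute phase genes of the rat that were called lower in study 3. Of its 14 tested genes none was called lower against vehicle by limma. The R2 rats had 3 of them higher: lipocalin Lcn2 (2.47 ± 0.40, SE, adjusted p = 1.23e-05), lipopolysaccharide-binding protein Lbp (1.73 ± 0.25, adjusted p = 1.75e-06) and the interleukin 6 co-receptor Il6st (0.77 ± 0.25, adjusted p = 0.0259). Lbp was higher under R1 at 30 mg/kg/day for 336 h (1.75 ± 0.25, adjusted p = 1.97e-06). Lcn2 (1.92 ± 0.42, adjusted p = 0.00105) and Orm1 (0.81 ± 0.23, adjusted p = 0.0158) were higher at 100 mg/kg/day for 336 h, and the receptor Il1r1 at 10 mg/kg/day for 24 h (1.33 ± 0.34, adjusted p = 0.0346). Of 15 liver transcription factors, 4 were lower under R2, among them Cebpa (-0.84 ± 0.21, adjusted p = 0.00365) and Foxa1 (-1.15 ± 0.28, adjusted p = 0.00286). At 30 mg/kg/day for 336 h Foxa3 was lower (-0.82 ± 0.24, adjusted p = 0.0184), and at 100 mg/kg/day for 24 h Hnf4a was higher (0.80 ± 0.20, adjusted p = 0.00607).

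Markers of other cells differed beside the members in several comparisons. The summed signal of 6 bile duct markers ran from 1223 to 1564 under R1 at 30 mg/kg/day and from 553 to 653 in vehicle rats of study 3. It ran from 926 to 1320 under R2 and from 449 to 831 in its vehicle rats. In study 2 it ran from 884 to 1213 in vehicle rats, from 1245 to 2048 at 20 mg/kg/day and from 944 to 1523 at 100. A sum is weighted to the brightest markers. The median log2 fold change of the 6 was 0.19 in study 3 and 0.55 under R2. In study 2 the median was 0.17 at 20 and 0.19 at 100 mg/kg/day, and at 100 for 24 h it was -0.15. No more than 2 of the 6 were called in any of these comparisons. In study 3, among these markers Krt18, which hepatocytes express as well, was higher (1.21 ± 0.17, SE, adjusted p = 1.23e-06), as was Epcam (1.30 ± 0.30, adjusted p = 0.00186). Epcam was also higher under R2 (1.08 ± 0.30, adjusted p = 0.00845) and at 20 (1.07 ± 0.30, adjusted p = 0.0253) and 100 mg/kg/day for 336 h (1.64 ± 0.31, adjusted p = 0.000175). Krt18 was also higher under R2 (0.83 ± 0.17, adjusted p = 0.000458), at 20 mg/kg/day for 336 h (0.72 ± 0.17, adjusted p = 0.00621) and at 100 for 24 h (0.77 ± 0.21, adjusted p = 0.0163). In study 3, of 9 hepatocyte markers, Apoa1 was higher (0.59 ± 0.12, adjusted p = 0.000704) and Apoc3 lower (-0.65 ± 0.10, adjusted p = 6.72e-06), and the median of the 9 was -0.11. Apoc3 was lower at 20 (-0.39 ± 0.10, adjusted p = 0.0142) and 100 mg/kg/day for 336 h (-0.43 ± 0.11, adjusted p = 0.00429) too, and Apoa1 higher at 100 (0.43 ± 0.13, adjusted p = 0.0242). Under R2, Tat was the hepatocyte marker called, lower by 1.13 on the log2 scale (a log2 fold change of -1.13 ± 0.28, adjusted p = 0.00327). In study 3, of 9 stellate cell and fibroblast markers, 2 collagens were lower, Col1a1 (-1.51 ± 0.42, adjusted p = 0.0122) and Col3a1 (-1.02 ± 0.24, adjusted p = 0.00261). Of 5 endothelial markers Kdr was lower there (-1.19 ± 0.25, adjusted p = 0.000711) and at 100 mg/kg/day for 336 h (-0.91 ± 0.27, adjusted p = 0.0174). The stellate marker Acta2 was lower under R2 (-1.93 ± 0.53, adjusted p = 0.00818). Neither neutrophil and mast cell markers (4 tested) nor lymphocyte markers (5 tested) were called by limma in any comparison with vehicle. The part of these cells in the members' values was not tested.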

How the data were processed

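Liver RNA was measured on 44 Affymetrix rat arrays, 1 per labelled sample. The deposited values are signal intensities made with MAS5, per the submitters' processing notes, and its version is not given in the sources used here. Sorted values were identical between arrays, so the deposited intensities had been quantile normalized over all arrays, which makes every value relative. Control probe sets were left out, leaving 8740. Gene symbols came from the platform annotation: 7006 probe sets had 1 symbol, 308 several and 1426 none.

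Values were analysed as log2(intensity + 2.89), where the offset is percentile 20 of all values, so fold changes of dim probe sets are understated. Probe sets whose highest group mean reached 9.17 (percentile 40), 6361 in all, were fitted with limma 3.58.1 (R 4.3.3) as 11 group means with a mean-variance trend and 33 residual degrees of freedom. P-values were adjusted by Benjamini-Hochberg over all tested probe sets in each of 13 comparisons, and an adjusted p under 0.05 was a call. Groups came from the labels. Nothing beyond the sample labels says that replicates are independent animals or litters, so a p-value reflects variation among the arrays given. The fit was checked on simulated data. Tables and figures were made with Python 3.11.15, numpy 2.4.6, pandas 2.3.3 and matplotlib 3.10.9.

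Members called at least once against vehicle were named with their values, as were C3, C9, Fgb, Serpina1, Plg and C1qb whatever their values. Serpinc1 was also planned for naming, but no probe set of it was a member. Genes of the other lists were named where called against vehicle, at most 4 per list and comparison. Their calls between doses, times or studies were not all named. Other members were chosen for naming after their values were seen. The members and lists were chosen with earlier results of these data known. Alternatives were other offsets and filters, centring, no trend, array weights, a replicate block, 1 probe set per gene, each study alone and each array left out.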

Additional observations from a re-analysis of the deposited data

Results flagged for a closer look

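In 5 of 74 groups of called members, 1 array lay far from the others of its group by Dixon's test. Chance gives about 1 in 20 groups. Under R1 at 30 mg/kg/day for 336 h, replicate 3 had the lowest signal for Fgb, 1456.8, where the other 3 rats ran from 2552.4 to 2714.97, and for Serpina3m, 386.23, where the others ran from 686.819 to 725.632. The Serpina1 probe set X16273cds_at was highest in replicate 3 of R1 at 20 mg/kg/day for 336 h, at 8620.72, where the others ran from 7925.73 to 8047.23. Serpind1 was lowest in replicate 1 of the study 2 vehicle rats, at 1501.18, where the others ran from 1709.72 to 1730.38. Serping1 was lowest in replicate 1 of the study 3 vehicle rats, at 1209.85, where the others ran from 1798.71 to 2077.07. The cause of these single values was not tested.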

How the results depend on the processing

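Of 42 calls of members against vehicle, 18 were kept with each array left out and 17 under every other setting as well, and no named value reversed its sign. With single arrays left out, the number of called members, 3 for R1 at 10 mg/kg/day for 24 h, ran from 1 to 4. It was 0 and ran from 0 to 1 at 30, and 2 and from 1 to 3 at 100. For R2 it was 8 and ran from 4 to 11. At 336 h it was 8 and ran from 3 to 9 at 20 mg/kg/day, 14 and from 8 to 16 at 30, and 7 and from 6 to 10 at 100. It was 1 and ran from 0 to 1 for 100 against 10 mg/kg/day, 0 and from 0 to 3 for the effect of 100 mg/kg/day between times, 10 and from 8 to 11 for vehicles of study 3 against study 2, and 4 and from 0 to 4 for study 4 against study 1. For 100 against 20 mg/kg/day and for the effect of 30 mg/kg/day between times it was 0 throughout.

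With each study fitted alone the count was 1 for R1 at 30 mg/kg/day for 24 h, 2 for R2, 5 at 20 mg/kg/day, 0 for 100 against 10, 1 for the effect of 100 between times and 1 for the vehicles of study 4 against study 1. With arrays weighted by quality it was 1 at 30 and 4 at 100 mg/kg/day for 24 h, 13 at 20, 2 for 100 against 10, 2 for the effect of 100 between times and 7 for the vehicles of study 4 against study 1. With the filter at percentile 60 it was 2 at 30 and 4 at 100 mg/kg/day for 24 h and 1 for the effect of 100 between times. Without a filter it was 5 at 20 mg/kg/day. Without a trend it was 5 at 20 mg/kg/day, 0 for 100 against 10 and 1 for the vehicles of study 4 against study 1. With 1 probe set per gene it was 1 at 100 mg/kg/day for 24 h and 4 at 20, over fewer probe sets. The cause of the other changes was not tested.

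The labels do not say whether replicate numbers pair the rats. Deviations of same-numbered arrays correlated weakly, between -0.09 and 0.15, and weak correlations cannot settle whether they were paired. With a replicate block the count was 5 at 10, 1 at 30 and 4 at 100 mg/kg/day for 24 h and 2 for the effect of 100 between times. The block ended 5 of the 42 calls. Its blocks lie within studies, so no count with it was made for vehicles of different studies. Dim probe sets near the filter, such as those of C1qc and Serpina7, have little signal over background.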
